A study of Mus musculus with 6 samples.

Results

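The 32 genes described here encode the enzymes of fatty acid oxidation and ketone body metabolism, nuclear receptors and a coactivator that govern them, and marker targets of these receptors. They were taken by gene symbol from a fixed list of names, and each gene was read on the probe set that was brightest over all 6 arrays. Of the 32 genes, 31 lay above the signal filter and were tested, among 12437 genes tested in all. Angptl4 lay below the filter and is given by its values only. RNA came from colonic mucosa of C57BL/6 mice, labelled as intestinal epithelial cells and as untreated. The labelled genotypes were p38a knockout, with 3 arrays, and wild type, also with 3, and each set carried the letters A, B and C. Mapk14 encodes p38a, a kinase activated by stress. The labels give neither the age of the mice, nor the cells in which the gene was deleted, nor whether the samples came from separate animals, so the p-values cover the spread among these samples alone, and that spread may be technical. The comparison asks which transcripts of this pathway differ with the labelled genotype.

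Mitochondrial fatty acid oxidation carries acyl groups across the inner membrane as carnitine esters and then shortens them in repeated rounds of dehydrogenation, hydration, a second dehydrogenation and thiolysis. The electrons pass to the respiratory chain through electron transfer flavoprotein, and the acetyl-CoA enters the citric acid cycle or ketone bodies. Colonocytes are known for using butyrate, a short-chain fatty acid made by gut bacteria, as a main fuel. The PPAR nuclear receptors and the coactivator encoded by Ppargc1a are known activators of many of these genes.

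Hadha and Hadhb encode the alpha and beta subunits of the mitochondrial trifunctional protein and start head to head, 273 bases apart, so that their promoters lie in the same stretch of DNA. This stretch is shown because it is a promoter region that a pair of members share. It lies at chr5:30154981-30155252 of the RefSeq promoter table (build GRCm38.p6), is printed on the plus strand, and ends on the right just before the start of Hadhb. Capitals mark its 18 CpG dinucleotides.
Hadha-Hadhb: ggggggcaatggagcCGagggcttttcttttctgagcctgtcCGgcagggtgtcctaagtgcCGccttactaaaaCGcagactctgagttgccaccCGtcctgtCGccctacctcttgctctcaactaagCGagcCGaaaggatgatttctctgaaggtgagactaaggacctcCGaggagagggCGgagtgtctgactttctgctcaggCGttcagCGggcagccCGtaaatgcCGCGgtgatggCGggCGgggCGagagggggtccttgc
Of the 32 genes, 27 had at least 1 promoter in that table, 30 promoters in all, each running from 250 bases before to 50 after a start. Crat, Decr1, Acaa2, Acat1 and Angptl4 had none there. The median number of CpG dinucleotides was 16.5 in these 30 promoters and 7.0 in all 32851. No promoter of the 27 genes held the PPAR response element AGGTCANAGGTCA, its looser form AGGNCANAGGNCA or the element TCAAGGTCA bound by oestrogen-related receptors, on either strand. Among all 27025 genes of the table these stood in 0.0481%, 0.451% and 0.466%. At shares this low, finding none in 27 genes says little, and elements outside these windows or with other mismatches were not searched. The unit AGGTCA alone, which is part of the first and last of these elements and was added after the others had given no match, stood in promoters of 5 of the 27 genes (18.5%), namely Acadm, Acadvl, Cpt1a, Echs1 and Pparg, against 18.1% of all genes.

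The unit of each value is log2(signal + 16), quantile normalized, a scale on which fold changes understate the change of dim genes. The level of 1 probe set is not set against that of another gene. All adjusted p-values are from limma, adjusted with Benjamini-Hochberg over the 12437 genes. Arrays have no count depth, and their number, 3 per group, limits the precision. Mapk14, the labelled gene, had more signal in the arrays labelled knockout. It read 9.72, 9.91 and 9.73 there and 9.31, 9.44 and 9.37 in wild type, a difference of 0.41 (SE 0.14, limma adjusted p = 0.902, exact two-sided permutation p = 0.1, the smallest that 3 against 3 arrays can give). These values are from the brightest of 6 Mapk14 probe sets. The 4 others above the filter were at 0.29, 0.34, 0.62 and -0.064 with overlapping groups, and the 1 below it at 0.17. The arrays are therefore called "labelled knockout" throughout, and the position of its probe sets relative to the deletion was not analysed here. Before scaling, the arrays labelled knockout were brighter, with a trimmed mean signal of 192 to 222 against 117 to 188 in wild type. Degraded RNA raises the Gapdh ratio, the signal of the 3' control probe set over that of the 5' one. It was 0.859 to 0.954 in the arrays labelled knockout, against 1.10, 0.989 and 1.45 for wild type A, B and C. Wild type B was thus nearer to the arrays labelled knockout than wild type A and C were, on both measures. Over all genes tested it also correlated more closely with the array labelled knockout A (0.986, the highest of all pairs) than with wild type A (0.973) or C (0.926). Wild type B stood apart in pancreatic acinar genes too, which bears on each value given against it alone. There Prss2 read 7.67 against 4.97 to 5.22 in the other 5 arrays, Cela2a 7.71 against 4.12 to 5.01, Cpb1 7.10 against 4.06 to 4.77, Ctrb1 6.84 against 4.29 to 4.97 and Cpa1 6.42 against 4.09 to 4.34. The part of this in the values of the oxidation genes was not tested.

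None of the 31 tested genes passed an adjusted p of 0.05, and the smallest was 0.902. The background was the same, 0% of all genes tested called. Of the 31, 23 (74.2%) had the higher mean in the labelled knockout group and 8 the lower, beside 53.2% of all genes higher. The median log2 difference was 0.15, beside 0.021 for all genes. Values of single genes ran from -1.21 for Pdk4 to 0.45 for Acaa2. An unadjusted p under 0.05 was reached by 3 genes (9.68%), all higher, where 1.74% of all genes were higher and 2.2% lower at that level. The groups did not overlap for 5 genes (16.1%), Hadh, Acaa2, Decr1, Ehhadh and Acadl, all higher. Among all genes tested 4.68% were higher and 4.38% lower without overlap. In either direction 3.94% of all genes had an unadjusted p under 0.05. The number of the 31 with an unadjusted p under 0.05 was 1 (3.23%) without the array labelled knockout A, without knockout C or without wild type A, where 2.15%, 3.01% and 1.83% of all genes reached it. It was 2 (6.45%) without knockout B, beside 2.68% of all genes, and 4 (12.9%) without wild type C, beside 3.79%. Without wild type B it was 7 (22.6%), where the share of all genes also went up, to 17.2%. It was 16 (51.6%) on the signals as deposited and 8 (25.8%) with array weights, beside 17.1% and 16.1% of all genes, and 7 (22.6%) with centred arrays, beside 3.84%. Without the variance trend it was 1 (3.23%), beside 3.95%. Without wild type C 29 of the 31 were higher, beside 50.8% of all genes. That count was 21 without the array labelled knockout A, without wild type A or against wild type B alone, beside 51.3%, 51.2% and 45.9%. Without knockout C, wild type B or knockout B it was 22, 24 and 25, beside 54%, 53.8% and 54.2%. The median was 0.089 without the array labelled knockout A. On the signals as deposited 30 of the 31 were higher, and with each array centred on its median 28, beside 90.7% and 73.8% of all genes, whose medians were then 0.43 and 0.20. In each of these settings 24 of the 31 lay above the median of all genes, against 22 in the main setting.

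**Figure D1:**
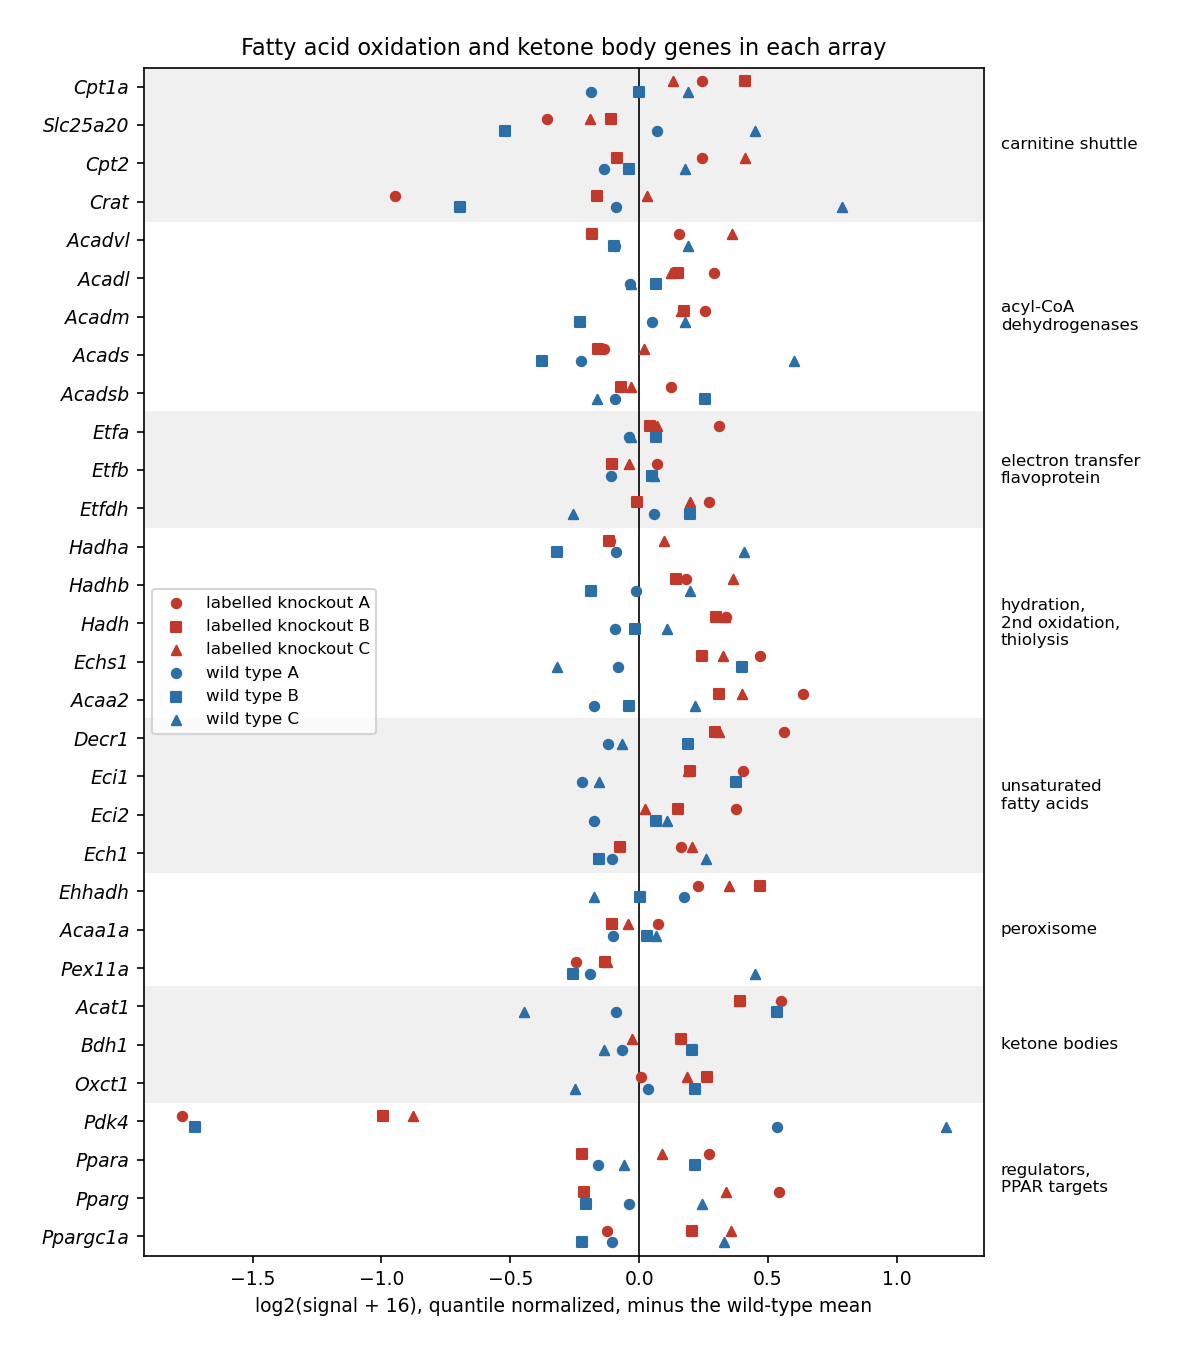
Each of the 31 tested genes in every array, as log2(signal + 16) after quantile normalization minus the mean of the 3 wild-type arrays (x axis). Red points are arrays labelled knockout, blue points wild type, and shapes give the letters A, B and C. Hadh, Acaa2, Decr1, Ehhadh and Acadl have all red points to the right of all blue points, and Pdk4 spans the widest range, with wild type A and C on the right and wild type B on the left.

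The carnitine shuttle had 2 genes higher and 2 lower in the mean. Cpt1a encodes the outer-membrane carnitine palmitoyltransferase, the rate-limiting step of entry. In the order A, B and C it read 10.47, 10.64 and 10.36 for labelled knockout and 10.04, 10.23 and 10.42 for wild type, the order kept below. Wild type C lay above the array labelled knockout C, and otherwise the groups were separate, for a difference of 0.26 (SE 0.15, limma adjusted p = 0.902, 95% interval -0.09 to 0.62). The other 2 Cpt1a probe sets gave larger differences, 0.72 and 0.57, with no overlap between the groups on either. Both carry a suffix that marks possible cross-hybridisation. Cpt2, the inner-membrane counterpart, was at 0.19 (SE 0.18) with overlapping groups.

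Slc25a20, the carnitine-acylcarnitine translocase of the inner membrane, read 11.71, 11.95 and 11.88 in the arrays labelled knockout and 12.14, 11.55 and 12.51 in wild type. Wild type A and C lay above all arrays labelled knockout and wild type B below them, so that the mean difference was -0.22 (SE 0.23, limma adjusted p = 0.902). Its other probe set, which may cross-hybridise, showed the same order of arrays between the groups. There wild type C was at 11.31, wild type A at 10.63 and wild type B at 9.97 against 10.02 to 10.35. Without wild type C the difference of the brightest probe set was 0.0046. Crat encodes carnitine acetyltransferase, which exports acetyl groups. It read 7.41, 8.20 and 8.39 against 8.27, 7.66 and 9.15, again with wild type C highest, and a difference of -0.36 (SE 0.40, limma adjusted p = 0.902) that was 0.032 without wild type C. The brightest Crat probe set may cross-hybridise, and the other 2 were at -0.060 and -0.039.

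Of the 5 acyl-CoA dehydrogenases, which open each round of oxidation and differ in the chain length they accept, 4 were higher in the mean. Acadl, the long-chain enzyme, read 11.63, 11.49 and 11.46 in the arrays labelled knockout and 11.31, 11.41 and 11.31 in wild type. All arrays labelled knockout lay above all wild-type arrays, by a small margin, with a difference of 0.19 (SE 0.12, limma adjusted p = 0.902, 95% interval -0.08 to 0.45). Its other, much dimmer probe set was at 0.076 with overlapping groups. Acadm, the medium-chain enzyme, read 11.50, 11.42 and 11.41 against 11.30, 11.02 and 11.42, where wild type C reached the level of the arrays labelled knockout (difference 0.20, SE 0.14). Acadvl, the very-long-chain enzyme, was at 0.11 (SE 0.18), and at -0.013 without the array labelled knockout C.

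Acads, the short-chain enzyme that acts on butyryl-CoA, stood apart in wild type C. It read 9.70, 9.68 and 9.86 in the arrays labelled knockout, 9.61 and 9.46 in wild type A and B, and 10.44 in wild type C. The mean difference was -0.093 (SE 0.25, limma adjusted p = 0.952) and turned to 0.21 without wild type C. Acadsb, which acts on short branched chains from isoleucine, was at 0.0071 (SE 0.19) on a probe set that may cross-hybridise. It fell on the other side of 0 without the array labelled knockout A (-0.051), wild type A (-0.040) or wild type C (-0.074).

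The electron transfer flavoprotein genes lay close together between the groups. Etfa, its alpha subunit, was at 0.14 (SE 0.13), Etfdh, the ubiquinone oxidoreductase that takes up its electrons, at 0.15 (SE 0.17), and Etfb, the beta subunit, at -0.025 (SE 0.13). Groups overlapped for all 3. The 95% intervals reached from -0.16 to 0.44 for Etfa, -0.23 to 0.54 for Etfdh and -0.32 to 0.27 for Etfb, so that differences of about that size in either direction could not be told from 0. The difference of Etfdh was 0.025 without wild type C. The sign of Etfb turned without the array labelled knockout B (0.015), wild type C (0.0042) or wild type B (0.0002).

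The genes of hydration, the second oxidation and thiolysis included the 2 smallest p-values of the pathway. Hadh encodes the short-chain hydroxyacyl-CoA dehydrogenase of the mitochondrial matrix. Its brightest probe set read 13.13, 13.09 and 13.13 in the arrays labelled knockout and 12.70, 12.78 and 12.90 in wild type. The arrays labelled knockout were nearly equal and all above wild type, 13.12 ± 0.021 against 12.79 ± 0.10 (SD, n = 3 each). That is 1.25-fold higher, a log2 difference of 0.32 (SE 0.097, limma unadjusted p = 0.00992, adjusted p = 0.902, 95% interval 0.10 to 0.55). The 3 Hadh probe sets all separated the groups, with differences of 0.32, 0.48 and 0.79. The first and last of these may cross-hybridise, and the second, at 11.86, 11.74 and 11.97 against 11.22, 11.41 and 11.51, carries no such mark. Under all 19 other settings the Hadh difference was positive, from 0.28 to 0.60, and never called.

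Acaa2, the mitochondrial ketoacyl-CoA thiolase that releases acetyl-CoA, read 10.08, 9.75 and 9.85 in the arrays labelled knockout and 9.27, 9.40 and 9.66 in wild type. No wild-type array reached the lowest array labelled knockout, and the gene was 1.37-fold higher, a difference of 0.45 (SE 0.17, limma unadjusted p = 0.0284, adjusted p = 0.902). This brightest probe set carries a suffix that marks possible cross-hybridisation. The other 2 probe sets, without that mark, gave 0.56 and 0.78, also without overlap. Of these, the 1 at 9.35, 9.12 and 9.15 against 8.59, 8.67 and 8.67 had wild-type arrays close together. The Acaa2 difference stayed positive under all 19 other settings, from 0.36 to 0.97, and was not called in any.

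Echs1, the short-chain enoyl-CoA hydratase, read 10.42, 10.20 and 10.28 against 9.87, 10.36 and 9.64. Wild type B lay within the range of the arrays labelled knockout and wild type A and C below it, for a mean difference of 0.35 (SE 0.20, limma adjusted p = 0.902). Against wild type B alone the difference was -0.056. Hadhb read 11.36, 11.32 and 11.54 against 11.16, 10.99 and 11.37, and Hadha read 8.85, 8.85 and 9.06 against 8.88, 8.64 and 9.37. Within wild type both subunits were highest in C and lowest in B, and within the arrays labelled knockout both were highest in C. The group differences were 0.23 (SE 0.14) for Hadhb and -0.044 (SE 0.21) for Hadha, and that of Hadha was 0.16 without wild type C. Whether the 2 genes differ from each other in response was not tested. The brightest Hadhb probe set may cross-hybridise, and the next, without that mark, was at 0.21. A dim additional probe set of Hadhb, at -0.32, went against these 2.

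**Figure D2:**
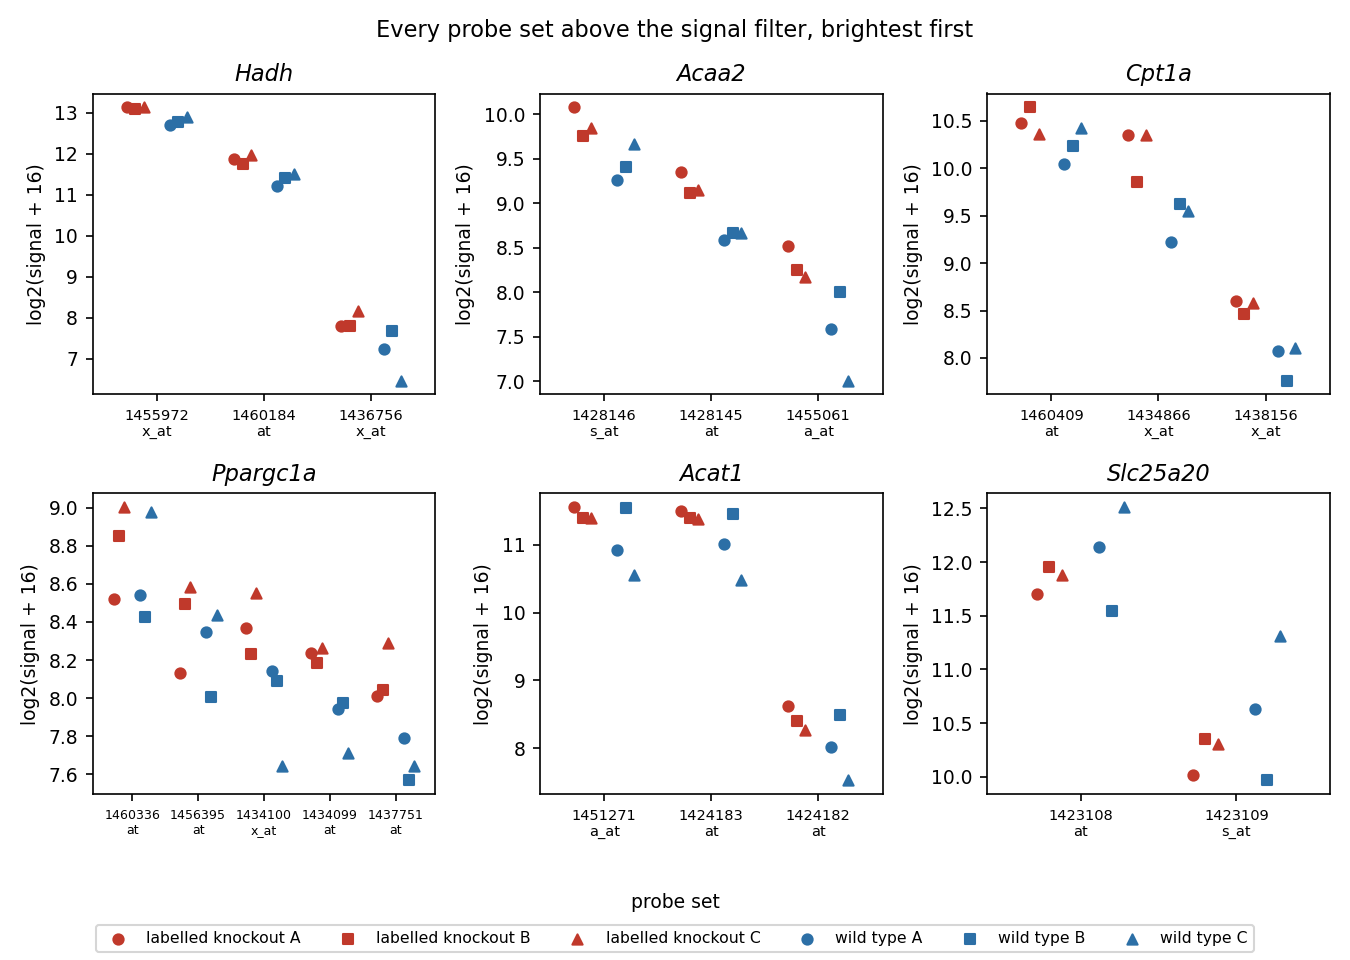
Signals of every probe set above the filter for 6 genes, as log2(signal + 16) after quantile normalization (y axis), ordered from the brightest. Red is labelled knockout, blue is wild type, and shapes give the letters. All 3 probe sets of Hadh and of Acaa2 and 2 of 3 of Cpt1a separate the groups, those of Acat1 place wild type B with the arrays labelled knockout, and those of Slc25a20 place wild type A and C above and B below them.

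The 4 genes that prepare unsaturated fatty acids were all higher in the mean, and 1 separated the groups. Decr1, the mitochondrial dienoyl-CoA reductase, read 10.46, 10.19 and 10.20 in the arrays labelled knockout and 9.77, 10.08 and 9.83 in wild type. The lowest array labelled knockout lay just above wild type B, and the gene was 1.31-fold higher, a difference of 0.39 (SE 0.16, limma unadjusted p = 0.036, adjusted p = 0.902). Against wild type B alone it was 0.20, and its dimmer probe set was at 0.12 with overlapping groups. Eci1, the mitochondrial enoyl-CoA isomerase, read 9.35, 9.15 and 9.14 against 8.73, 9.33 and 8.79, with wild type B again inside the range of the arrays labelled knockout (difference 0.26, SE 0.20). Eci2, a related isomerase, was at 0.18 (SE 0.17) and Ech1, the dienoyl-CoA isomerase, at 0.098 (SE 0.16), which was 0.021 without wild type B.

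The peroxisomal genes were mixed. Ehhadh, the peroxisomal bifunctional enzyme and a known PPARalpha target, read 8.46, 8.70 and 8.58 in the arrays labelled knockout and 8.41, 8.24 and 8.06 in wild type. The groups did not overlap, although wild type A came within a small distance, and the gene was 1.27-fold higher (difference 0.35, SE 0.17, limma adjusted p = 0.902, 95% interval -0.05 to 0.74). Acaa1a, the peroxisomal thiolase, was at -0.026 (SE 0.15) on a probe set that may cross-hybridise, while its other probe set was at 0.12. Pex11a, a peroxisome division gene, read 8.14, 8.25 and 8.26 against 8.19, 8.13 and 8.83. Wild type C was high and the other 5 arrays close together, so that the difference of -0.17 (SE 0.22) turned to 0.057 without wild type C.

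The 3 ketone body genes were higher in the mean, with overlapping groups. Acat1, the mitochondrial acetoacetyl-CoA thiolase, read 11.56, 11.40 and 11.40 in the arrays labelled knockout and 10.92, 11.54 and 10.56 in wild type. Wild type B stood with the arrays labelled knockout, and wild type A and C stood below all of them. The difference was 0.44 (SE 0.23, limma adjusted p = 0.902, 95% interval -0.09 to 0.98), and -0.093 against wild type B alone. All 3 Acat1 probe sets had this order, with mean differences of 0.44, 0.43 and 0.42. Oxct1 encodes the succinyl-CoA transferase that lets tissues burn ketone bodies. It read 11.81, 12.07 and 11.99 against 11.84, 12.02 and 11.55, a difference of 0.15 (SE 0.15) that was 0.027 without wild type C, and 1 of its 4 probe sets, which may cross-hybridise, went the other way at -0.45. Bdh1, the hydroxybutyrate dehydrogenase, was at 0.0995 (SE 0.15), and at 0.031 without wild type C. For all 3 genes wild type C was the lowest of the 6 arrays.

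Among the regulators and marker targets, Pdk4 had the widest spread of all 31 genes. Pdk4 encodes the kinase that shuts pyruvate dehydrogenase when fatty acids are burned, and is a known PPAR target. It read 6.02, 6.80 and 6.92 in the arrays labelled knockout and 8.33, 6.07 and 8.98 in wild type. Wild type A and C lay above all arrays labelled knockout, and wild type B at the level of the lowest of them. The wild-type mean was 7.79 ± 1.53 and that of the arrays labelled knockout 6.58 ± 0.49 (SD, n = 3 each), 2.32-fold higher in wild type, with a difference of -1.21 (SE 0.67, limma adjusted p = 0.902, 95% interval -2.75 to 0.32). Without wild type B the difference was -2.08, with the smallest adjusted p of any of the 31 genes in any setting, 0.123 in limma. It was 0.51 against wild type B alone and 0.29 (SE 0.65) once the Gapdh ratio entered the model. That ratio was higher in every wild-type array than in any array labelled knockout, so the model cannot cleanly separate it from the labelled genotype. The Gapdh ratio was highest in the same 2 wild-type arrays, and its part in the Pdk4 values was not tested beyond that covariate. Pdk4 had 1 probe set.

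Angptl4, the secreted lipoprotein lipase inhibitor induced by PPARs, lay below the filter at 5.11. It read 5.11, 4.25 and 4.97 against 5.06, 4.68 and 5.16 on the brighter of its 2 probe sets, which may cross-hybridise, with overlapping groups. The 3 regulators of the pathway overlapped between the groups on their brightest probe sets. Ppara, the fatty-acid-sensing receptor, was at 0.045 (SE 0.21) and turned without the array labelled knockout A (-0.067) or wild type A (-0.035), while its other 2 probe sets were at 0.068 and 0.058. Pparg, the receptor that is abundant in colonocytes, was at 0.22 (SE 0.23), and ran from 0.063 without the array labelled knockout A to 0.44 without B. Ppargc1a encodes the coactivator PGC-1alpha. Its brightest probe set read 8.52, 8.85 and 9.004 against 8.54, 8.42 and 8.98, a difference of 0.15 (SE 0.21, limma adjusted p = 0.907) that was 0.033 without wild type B. Of its 5 probe sets, 3 separated the groups, at 0.42, 0.35 and 0.45, and 2 of these 3 carry no mark of cross-hybridisation. The 1 at 0.35 read 8.24, 8.18 and 8.27 in the arrays labelled knockout and 7.94, 7.97 and 7.71 in wild type.

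**Figure D3:**
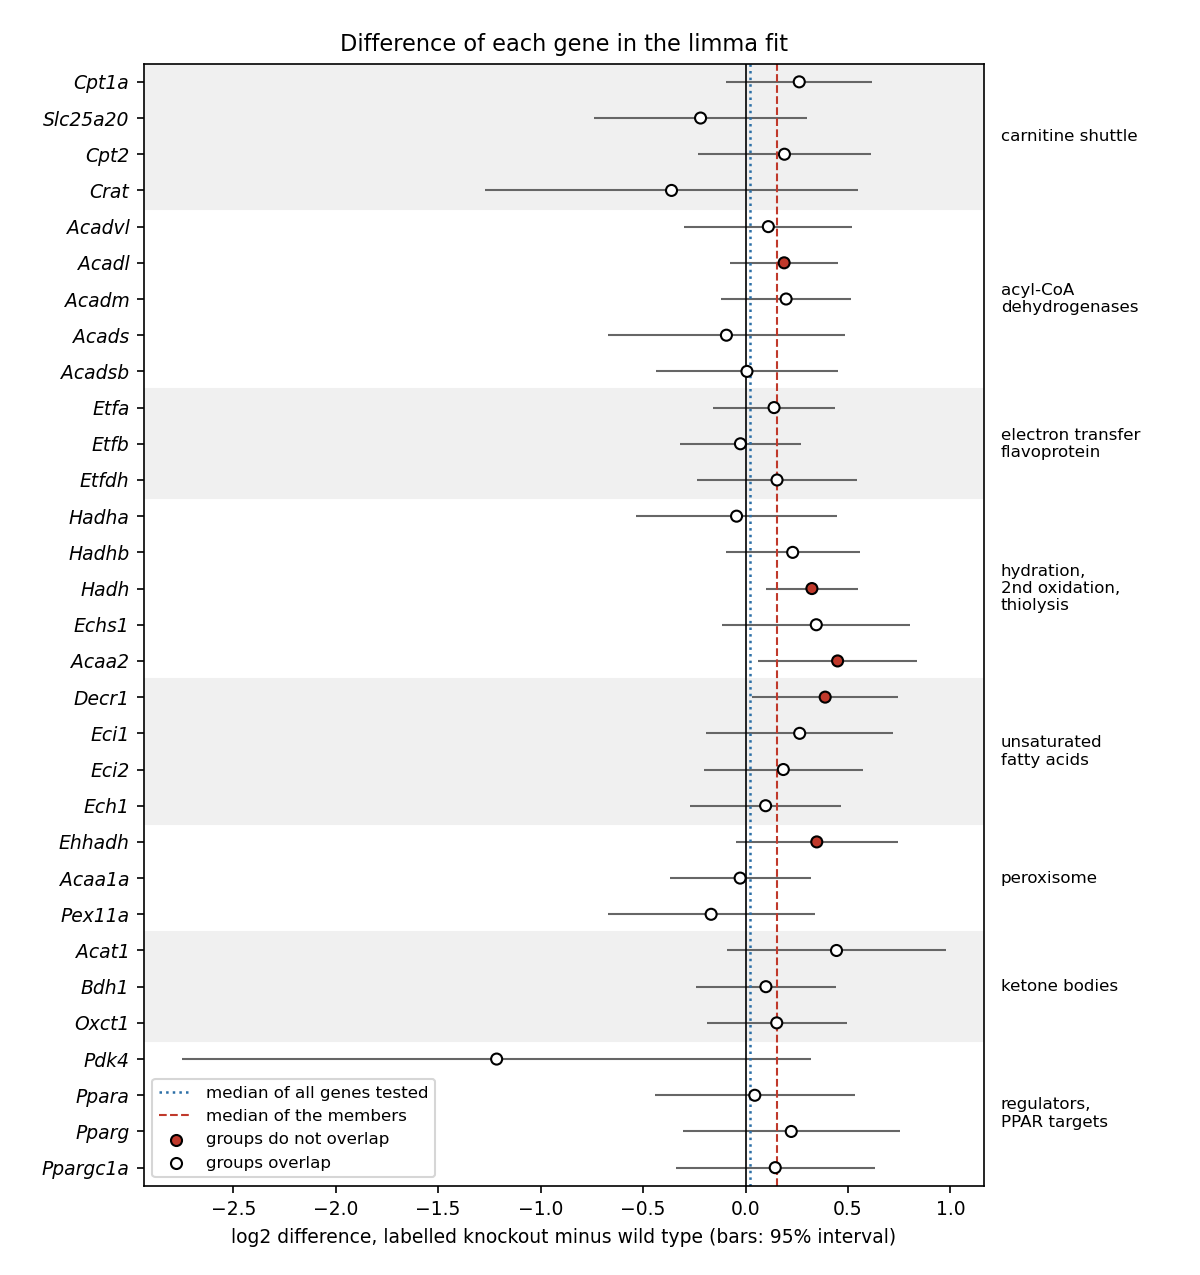
The log2 difference, labelled knockout minus wild type, of each tested gene in the limma fit (x axis) with its 95% interval, unadjusted for the number of genes. Filled points mark the 5 genes whose groups do not overlap, the dashed line the median of these genes (0.15) and the dotted line that of all genes tested (0.021). Only the intervals of Hadh, Acaa2 and Decr1 lie to 1 side of 0.

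Other probe sets mostly followed the brightest. In all, the genes had 62 probe sets, of which 59 lay above the filter, and 16 genes had more than 1 there. Of the 28 probe sets that were not the brightest of their gene, 25 had the same sign as it and 3, of Acaa1a, Hadhb and Oxct1, the opposite sign. Of these 28, 9 (32.1%) separated the groups with the arrays labelled knockout higher and 0 with them lower. Among all 10053 such probe sets the shares were 5.12% and 3.46%. The 9 belonged to 4 genes, namely Hadh, Acaa2, Cpt1a and Ppargc1a. Probe sets of 1 gene share its RNA and are not replicates. Some may also read overlapping stretches.

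The wild-type arrays did not lie equally far from the arrays labelled knockout. The mean of the arrays labelled knockout was above wild type A in 28 of the 31 genes (90.3%), above wild type B in 21 (67.7%) and above wild type C in 19 (61.3%). For all genes tested these shares were 54.7%, 45.9% and 52%. The median differences were 0.20, 0.21 and 0.072 against wild type A, B and C, beside 0.036, -0.024 and 0.025 over all genes. Wild type C was the highest of the 6 arrays for 7 of the 31 genes and the lowest for 7 (45.2% together, 63.1% of all genes), and the array labelled knockout A was the highest for 15. The median SD within a group was 0.13 for the arrays labelled knockout and 0.21 for wild type, and 23 of the 31 genes had the larger SD in wild type (74.2%, 70.8% of all genes). The array-by-array plot against wild type shows 2 orders, described after the values were seen. For 3 genes, Pdk4, Slc25a20 and Crat, wild type A and C lay above and wild type B below the mean of the arrays labelled knockout (16.4% of all genes). For 8 genes, Acat1, Echs1, Eci1, Etfdh, Oxct1, Bdh1, Ppara and Acadsb, wild type B lay above it and A and C below (23.3% of all genes). In 11 genes, namely Hadh, Acaa2, Decr1, Ehhadh, Acadl, Cpt1a, Cpt2, Acadm, Hadhb, Etfa and Eci2, the mean of the arrays labelled knockout was above all 3 wild-type arrays (14.9% of all genes).

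**Figure D4:**
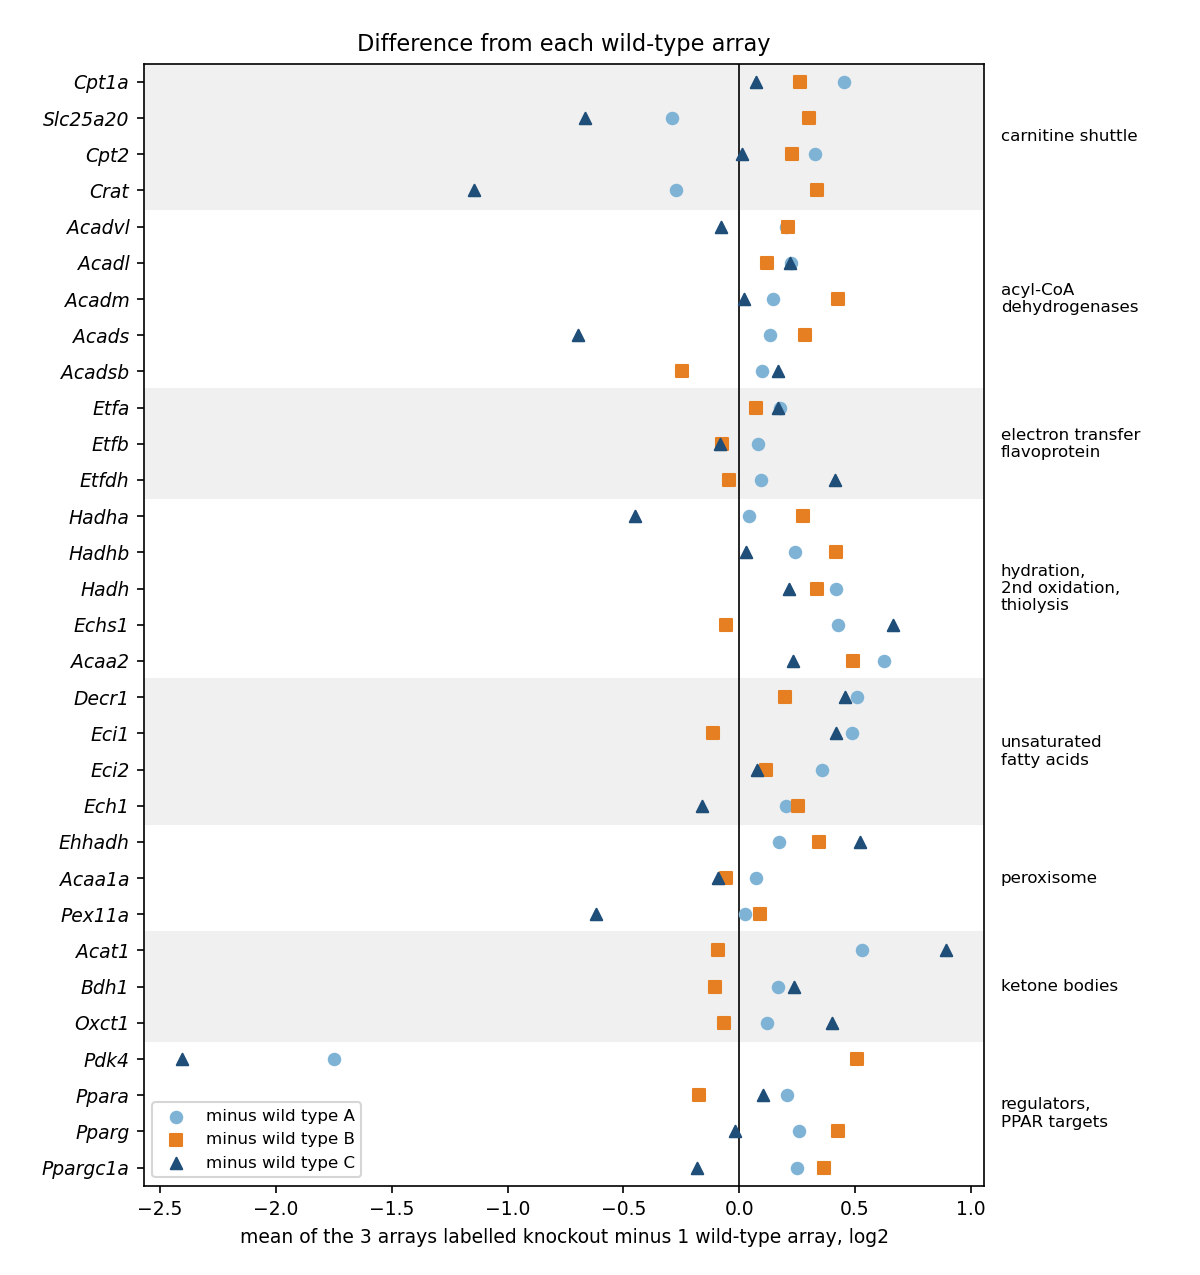
The mean of the 3 arrays labelled knockout minus each wild-type array, in log2 units (x axis), for each tested gene. Circles are differences from wild type A, squares from B and triangles from C. Pdk4 stands at -1.75 and -2.41 against wild type A and C and at 0.51 against B, and Acat1 at 0.53 and 0.89 against A and C and at -0.093 against B.

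Markers of cell types bear on the mucosa as a mixture, in which fewer cells of a type and less RNA per cell cannot be told apart. All 8 epithelial and all 10 surface colonocyte markers lay above the filter. Their summed linear signals overlapped between the groups, at 54480 to 60450 in the arrays labelled knockout and 54790 to 61160 in wild type for the epithelium. For surface colonocytes the sums were 58400 to 75900 and 60340 to 87640, and 9 of the 10 markers were lower in the mean. The sums of the 8 goblet cell markers did not overlap, 63830 to 67530 against 73700 to 82860, and all 8 were lower in the mean. Leukocyte markers, 7 of 9 measured above the filter, summed to 844 to 2273 and to 956 to 4132, highest in wild type C. Smooth muscle markers, 6 of 8 above the filter, summed to 330.1 to 740 and to 212 to 356, highest in the array labelled knockout A. Adipocyte markers, 5 of 7 above the filter with Adipoq and Lep below it, summed to 413 to 902 and to 608 to 854. The largest part of that sum was in every array the signal of Pck1, a gene also read below with the citric acid cycle. Cycling and crypt base markers, all 8 measured above the filter, summed to 5064 to 8160 and to 3443 to 9235, lowest in wild type C. Endothelial and fibroblast markers, 6 of 10 above the filter, summed to 442 to 2126 and to 1069 to 1581, and pancreatic acinar markers, 3 of 7 above it and mostly the signal of Cela1, to 1733 to 2375 and to 1460 to 2560. Wild type B was the highest array for the 6 acinar markers other than Cela1. Of the skeletal muscle markers 2 of 6 and of the nerve markers 1 of 7 lay above the filter, with overlapping sums of 165 to 213 against 173 to 251 and of 100.3 to 129 against 102 to 125. Of the leukocyte markers above the filter 6 were lower in the mean and 1 higher, and of the endothelial and fibroblast ones 5 and 1. Of the smooth muscle markers 5 were higher and 1 lower, and of the cycling and crypt base ones 6 and 2. Epithelial markers had 3 higher and 5 lower, adipocyte 2 and 3, acinar 1 and 2, skeletal muscle 0 and 2 and nerve 0 and 1. No marker of any of these lists was called or at 0. The part of these markers in the values of the oxidation genes was not tested.

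Related genes of lipid and fuel metabolism gave no call either. They were read from 10 lists in which the 31 genes were left out, and no gene of any list passed the limma threshold, with adjusted p-values of 0.902 or more. Of 15 genes of fatty acid uptake, binding and activation 11 were higher and 4 lower in the mean, with a median of 0.20 that was 0.13 without the array labelled knockout A. Fabp2, the intestinal fatty acid binding protein gene, read 11.88, 11.98 and 11.88 in the arrays labelled knockout and 12.74, 12.19 and 12.66 in wild type. It was lower without overlap, by a difference of -0.62 (SE 0.16), which was -0.28 against wild type B alone. Acss2, an acetyl-CoA synthetase, was at 0.35 (SE 0.15) and Acsl5, a long-chain acyl-CoA synthetase, at 0.30 (SE 0.13), both higher without overlap.

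Among 24 other genes of mitochondrial oxidation and carnitine handling 19 were higher, with a median of 0.21 that was 0.080 without wild type C. Pcca, a subunit of propionyl-CoA carboxylase, stood at 0.25 (SE 0.14), Acad10 at 0.33 (SE 0.195) and Acad12 at 0.45 (SE 0.26). Set against wild type B alone, 10 of the 24 were higher, with a median of -0.027. All 8 tested ketone body and butyrate genes were higher in the mean, with a median of 0.17 that ran from 0.085 without the array labelled knockout C to 0.30 without B, and none separated the groups. Without the array labelled knockout A, knockout C or wild type A, 6 of the 8 were higher. With no signal filter the list had 13 genes, 9 higher and 4 lower. Slc16a1, the monocarboxylate transporter that carries butyrate and ketone bodies, read 12.15, 12.29 and 12.44 against 12.02, 12.17 and 12.11 (difference 0.19, SE 0.12). Acsm3, a medium-chain acyl-CoA synthetase, was at 0.56 (SE 0.36) and at -0.17 against wild type B, and Bsg, the chaperone of that transporter, at 0.16 (SE 0.15). Against wild type B alone 5 of these 8 were higher.

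Of 29 other peroxisomal genes 24 were higher, with a median of 0.20 that was 0.0985 without wild type A. Decr2, the peroxisomal dienoyl-CoA reductase, was at 0.40 (SE 0.19) and Hsd17b4, the other bifunctional enzyme, at 0.26 (SE 0.15), both without overlap. The Hsd17b4 probe set may cross-hybridise, and the brightest without that mark gave 0.31. Groups overlapped for Nudt19 at 0.32 (SE 0.15) and the transporter gene Abcd3 at 0.27 (SE 0.13). Against wild type B alone 20 of the 29 were higher, with a median of 0.096. The 21 other PPAR target genes were nearly balanced, 12 higher and 9 lower with a median of 0.035 that ran from -0.090 without wild type B to 0.072 without C, and the largest of those named were lower. Against wild type B alone 14 of the 21 were higher, with a median of 0.16. With array weights 9 were higher and 12 lower, with a median of -0.22. Cyp4b1 stood at -0.66 (SE 0.27), Me1, the malic enzyme, at -0.59 (SE 0.36) and Adtrp at -0.46 (SE 0.26), of which -0.037 was seen against wild type B. Receptors and coregulators were balanced as well, 14 higher and 13 lower with a median of 0.0067 that ran from -0.065 without wild type B to 0.064 without C. Hnf4g, an intestinal nuclear receptor, was at 0.55 (SE 0.20) without overlap, Esrrg at 0.58 (SE 0.31) and the corepressor gene Nrip1 at 0.42 (SE 0.22). Ppard, the third PPAR, was at -0.051 (SE 0.18) and Esrra at -0.069 (SE 0.24). Set against wild type B alone, Esrrg was at 0.059, Nrip1 at -0.014, Ppard at 0.054 and Esrra at 0.30.

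Pyruvate dehydrogenase and its regulators had 11 of 15 genes higher, with a median of 0.16 that was 0.058 without wild type C. Pdk1 read 10.06, 10.01 and 9.94 in the arrays labelled knockout and 9.66, 9.47 and 9.90 in wild type, a difference of 0.32 (SE 0.16) without overlap. Pdk2 stood at 0.21 (SE 0.20), Pdk3 at 0.14 (SE 0.19), the mitochondrial pyruvate carrier gene Mpc1 at 0.32 (SE 0.20) and pyruvate carboxylase, Pcx, at -0.39 (SE 0.23). Pdk2 was dim and did not pass a filter at the 60th percentile. The SD within wild type was 0.21, 0.056 and 0.25 for Pdk1, Pdk2 and Pdk3, against 1.53 for Pdk4. Of 18 citric acid cycle genes 13 were higher, with a median of 0.14 that was 0.064 without the array labelled knockout A, among them Fh1 at 0.44 (SE 0.23), Idh2 at 0.37 (SE 0.18) and Suclg1 at 0.37 (SE 0.15). Of the 15 and the 18, 5 and 8 were higher than wild type B alone, against which Fh1 was at -0.058, Idh2 at 0.057, Suclg1 at 0.11, Mpc1 at -0.038 and Pdk3 at -0.12. Fatty acid synthesis, the opposing pathway, had 9 of 16 genes higher, with a median of 0.095 that was -0.013 without the array labelled knockout C. Scd2, Elovl5 and Scd1 stood at 0.56 (SE 0.24), 0.38 (SE 0.15) and 0.32 (SE 0.16), and Scd2 at 0.006 against wild type B. The Elovl5 probe set may cross-hybridise, and the brightest without that mark gave 0.57. Of 8 genes of lipoprotein lipase handling 5 were higher, with a median of 0.13 that was -0.034 without the array labelled knockout C. They included Pnpla2, the adipose triglyceride lipase gene, at -0.33 (SE 0.19), Gpihbp1 at -0.28 (SE 0.28) and Angptl7 at 0.33 (SE 0.35), which was at -0.51 against wild type B. Gpihbp1 and Angptl7 lay near the filter, both with a mean of 5.28 in the arrays labelled knockout, and with 5.56 and 4.96 in wild type. On the signals as deposited the median of every list was positive, as in the main setting, and that of all genes was 0.43. There 9 of 15, 19 of 24, 6 of 8, 23 of 29, 8 of 21, 13 of 27, 11 of 15, 13 of 18, 9 of 16 and 4 of 8 genes lay above that median, in the order of the lists given here.

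**Figure D5:**
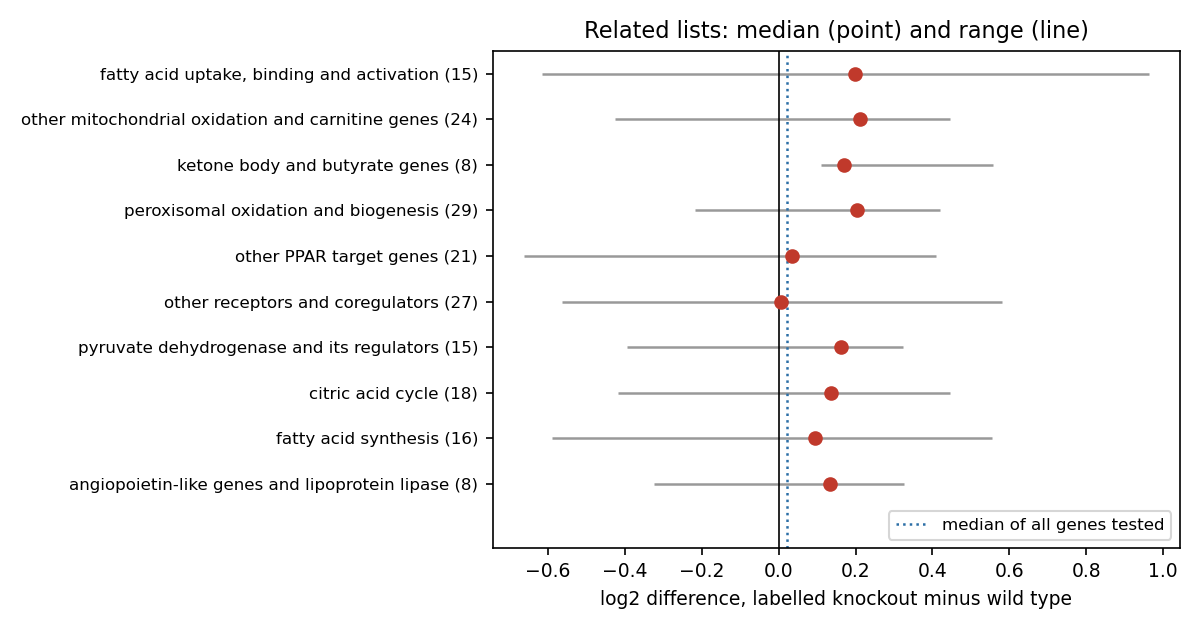
The 10 lists of related genes, with the number of tested genes in brackets. The point is the median and the line the range of the log2 differences, labelled knockout minus wild type (x axis), and the dotted line is the median of all genes tested, 0.021. The medians run from 0.0067 for receptors and coregulators to 0.21 for the other mitochondrial oxidation genes.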

How the data were processed

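Total RNA of mouse colonic mucosa was extracted with Trizol, cleaned on a column and labelled with a 3' in vitro transcription kit for Affymetrix arrays, per the labels' protocols. The authors deposited 1 linear intensity per probe set and array, 45101 in all, made with MAS5 per the submitters' processing notes. Its version and scaling are not stated in the labels or notes used. No overall scaling to a common target was seen in the values, so log2(signal + 16) was quantile normalized, which removes overall brightness differences but not effects of RNA quality on single transcripts.

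Symbols came from the platform annotation (34945 probe sets with 1 symbol, 932 with several, 9160 with none, the 64 controls left out, and no symbol changed on updating). Probe sets under the 40th percentile of the mean were dropped, and the brightest probe set of each gene was kept. Groups were compared with limma 3.58.1 (lmFit, eBayes with a variance trend) in R 4.3.3. Steps were tested on simulated data. The 6 arrays correlated at 0.924 to 0.986, the highest pair being across the groups, and none repeated another. Probe sets ending in _x_at or _s_at may read related transcripts.

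The members, gene lists, motifs and alternatives were chosen with earlier results of these data known. All members were named, and of each related list the 3 genes with the smallest unadjusted p plus Hsd17b4, Ppard, Esrra and Pdk1 to Pdk3. Some genes of the lists are not reported here. Array weights used limma's gene-by-gene method, because its default stopped before converging.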

Additional observations from a re-analysis of the deposited data

How the results depend on the processing

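Across 19 other settings no member was called by limma, and 14 of 31 kept the sign of their difference in each, namely Acaa2, Acadl, Acadm, Cpt1a, Cpt2, Decr1, Ech1, Eci2, Ehhadh, Etfa, Hadh, Hadhb, Pparg and Ppargc1a. Of 587 member values under other settings 61 had the sign turned. The cause was not tested. The count of all genes called was 1 on the signals as deposited, with each array centred on its median, with a pseudocount of 64 and against wild type B alone, 7 with array weights, and 0 to 6 when 1 array was left out. The replicate block, by the shared letters, called 3 genes and no member. Same-letter deviations correlated at -0.042, -0.111 and 0.452, and those of different letters at -0.449 to 0.514. With 3 arrays per group these values cannot decide whether the letters pair the arrays. The members' median moved to 0.61 as deposited, where that of all genes was 0.43, and to 0.37 with centring. Signs turned as deposited for Crat 0.14, Acads 0.42, Hadha 0.48, Etfb 0.44, Acaa1a 0.50, Slc25a20 0.17 and Pex11a 0.34, and with centring for Acads 0.19, Hadha 0.25, Etfb 0.21, Acaa1a 0.26 and Pex11a 0.11. Averaging the probe sets of a gene, the turned value was Acaa1a 0.045, and with array weights Acads 0.059, Hadha 0.0077, Etfb 0.037 and Acaa1a 0.031. With a Gapdh ratio covariate they were Crat 0.47, Acads 0.49, Acadsb -0.21, Hadha 0.36, Etfdh -0.15, Echs1 -0.057, Acaa1a 0.010, Acat1 -0.093, Bdh1 -0.047, Oxct1 -0.11, Slc25a20 0.33, Pdk4 0.29, Ppara -0.12 and Pex11a 0.28. The Gapdh ratio did not overlap between the groups, so this setting cannot cleanly separate it from the labelled genotype. Against wild type B alone they were Crat 0.33, Acads 0.28, Acadsb -0.25, Hadha 0.28, Etfdh -0.045, Eci1 -0.11, Echs1 -0.056, Acat1 -0.093, Bdh1 -0.10, Oxct1 -0.065, Slc25a20 0.30, Pdk4 0.51, Ppara -0.17 and Pex11a 0.089, where the lone control was assumed to vary like the other group. Leaving out 1 array in turn gave Acadsb -0.074 to 0.13, Ppara -0.068 to 0.18, Etfb -0.079 to 0.015, Acaa1a -0.076 to 0.014, Acadvl -0.013 to 0.26, Crat -0.71 to 0.032, Acads -0.28 to 0.21, Hadha -0.20 to 0.16, Slc25a20 -0.48 to 0.0046 and Pex11a -0.30 to 0.057. With a pseudocount of 1 or 64, or, chosen after seeing the data, the brightest probe set without an x or s suffix (29 members), no sign turned. No filter, a filter at the 60th percentile, the replicate block and no variance trend left the difference of every tested member equal to the main one. A sign could therefore not turn in these settings, which are counted among the 19 and their values among the 587.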
